A study of Mus musculus with 2 samples.

Results

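The genes described here are the platelet-derived growth factor (PDGF) ligands Pdgfa, Pdgfb, Pdgfc and Pdgfd and the receptors Pdgfra and Pdgfrb. They were chosen by their symbols, each of which had exactly 1 row in the count tables, so that 6 of the 32285 genes counted are followed, and all 6 had unique molecular identifiers (UMIs) in both libraries. The data are single-nucleus RNA sequencing (snRNA-seq) of epididymal white adipose tissue (WAT) from male C57BL/6N mice. The HF-HHT group began a diet high in fat (HF) at 8 weeks of age, and after 6 weeks on it received intraperitoneal homoharringtonine (HHT) 3 times a week for 8 weeks more on the same diet. The HF-PBS group was fed and injected on the same schedule with phosphate-buffered saline (PBS) in place of HHT. HHT, a leukemia drug of plant origin, binds ribosomes and stops translation, and here it was dissolved in dimethyl sulfoxide before it was diluted in PBS. Each group is 1 library made from the pooled fat of 3 mice, so no comparison between them has a replicate and no p-value is given.

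PDGFs are paired growth factors that act on mesenchymal cells. PDGF-A and PDGF-B are cut to their active form inside the cell, whereas PDGF-C and PDGF-D are secreted with a CUB domain that proteases outside the cell must remove first. PDGF receptor alpha binds the A, B and C chains, and PDGF receptor beta binds chiefly B and D. In adipose tissue, receptor alpha is a standard mark of adipocyte precursor cells (APCs), and receptor beta of pericytes and other mural cells as well as of precursors. Endothelial PDGF-B is the classical signal that holds pericytes on vessels.

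The libraries held 73313558 UMIs (HF-HHT) and 76197757 UMIs (HF-PBS), and 6443 and 6660 nuclei were kept, with medians of 3971 and 4310.5 UMIs. Clusters were built without the 6 genes and named from marker lists, which gave 11 classes with at least 30 nuclei in both libraries. All listed markers of the macrophage, APC, adipocyte, mesothelial and both endothelial classes were detected in both libraries. As a check of the tissue, the 10 adipocyte markers, among them Plin1 and Adipoq, summed to 10026 CPM (CPM, UMIs per 1e+06 UMIs of a class) in HF-HHT adipocyte nuclei and 7233 CPM in HF-PBS adipocyte nuclei. The classes were not equally filled, with 843 against 148 adipocyte nuclei, 37 against 738 B cell nuclei and 2252 against 3596 macrophage nuclei in HF-HHT and HF-PBS. Duct-like and multiciliated epithelial nuclei numbered 689 and 124 in HF-HHT, against 1 and 0 in HF-PBS. The perivascular class had only 26 and 29 nuclei and is described because Pdgfrb marks it, a choice made after its values were seen. The libraries shared 13 barcodes. All intervals below are exact 95% intervals and cover counting error only. Free RNA, read from droplets too shallow to hold a nucleus, made up at most 2.74% to 8.52% of UMIs in macrophage, APC, adipocyte and mesothelial nuclei and HF-HHT blood endothelial nuclei, 10.0% in HF-PBS blood endothelial nuclei and 31.5% in HF-PBS erythroid nuclei.

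The promoters of Pdgfd, Pdgfc and Pdgfra are shown because the results below turn mostly on these 3 genes. Each is 300 bases, 250 before and 50 after the start of the RefSeq gene on GRCm38.p6, read 5′ to 3′ on the strand of the gene. Of the 6 genes, 4 had a promoter in the RefSeq table. The capitals mark the TATA box letters TATAAA, searched on both strands with the GC box letters GGGCGG, which do not overlap them.
Pdgfd, chr9:6168236-6168535, plus strand: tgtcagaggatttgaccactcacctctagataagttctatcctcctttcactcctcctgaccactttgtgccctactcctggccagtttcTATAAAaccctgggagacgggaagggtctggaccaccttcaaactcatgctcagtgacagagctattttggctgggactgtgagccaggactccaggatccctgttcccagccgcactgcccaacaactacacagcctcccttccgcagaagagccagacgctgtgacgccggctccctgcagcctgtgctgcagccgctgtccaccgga
Pdgfc, chr3:81036166-81036465, plus strand: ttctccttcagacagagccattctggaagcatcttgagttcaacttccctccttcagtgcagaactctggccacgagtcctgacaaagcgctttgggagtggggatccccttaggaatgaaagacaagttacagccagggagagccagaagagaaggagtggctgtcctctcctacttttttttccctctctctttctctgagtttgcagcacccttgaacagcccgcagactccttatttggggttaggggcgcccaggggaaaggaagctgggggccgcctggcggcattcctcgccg
Pdgfra, chr5:75152001-75152300, plus strand: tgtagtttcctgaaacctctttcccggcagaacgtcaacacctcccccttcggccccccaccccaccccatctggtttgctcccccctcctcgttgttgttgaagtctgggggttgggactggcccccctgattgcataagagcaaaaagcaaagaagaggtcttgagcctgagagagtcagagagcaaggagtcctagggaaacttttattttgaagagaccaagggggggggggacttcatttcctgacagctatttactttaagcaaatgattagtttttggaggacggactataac
The Pdgfd promoter held 1 TATAAA, beginning 160 bases before the gene start, and the other 2 held none. A TATAAA was present in 13.6% of the 32851 promoters in the table, and a GGGCGG, absent from all 3, in 35.7%. The 300 bases held 8 CG pairs in Pdgfd, 8 in Pdgfc and 5 in Pdgfra.

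**Figure D1:**
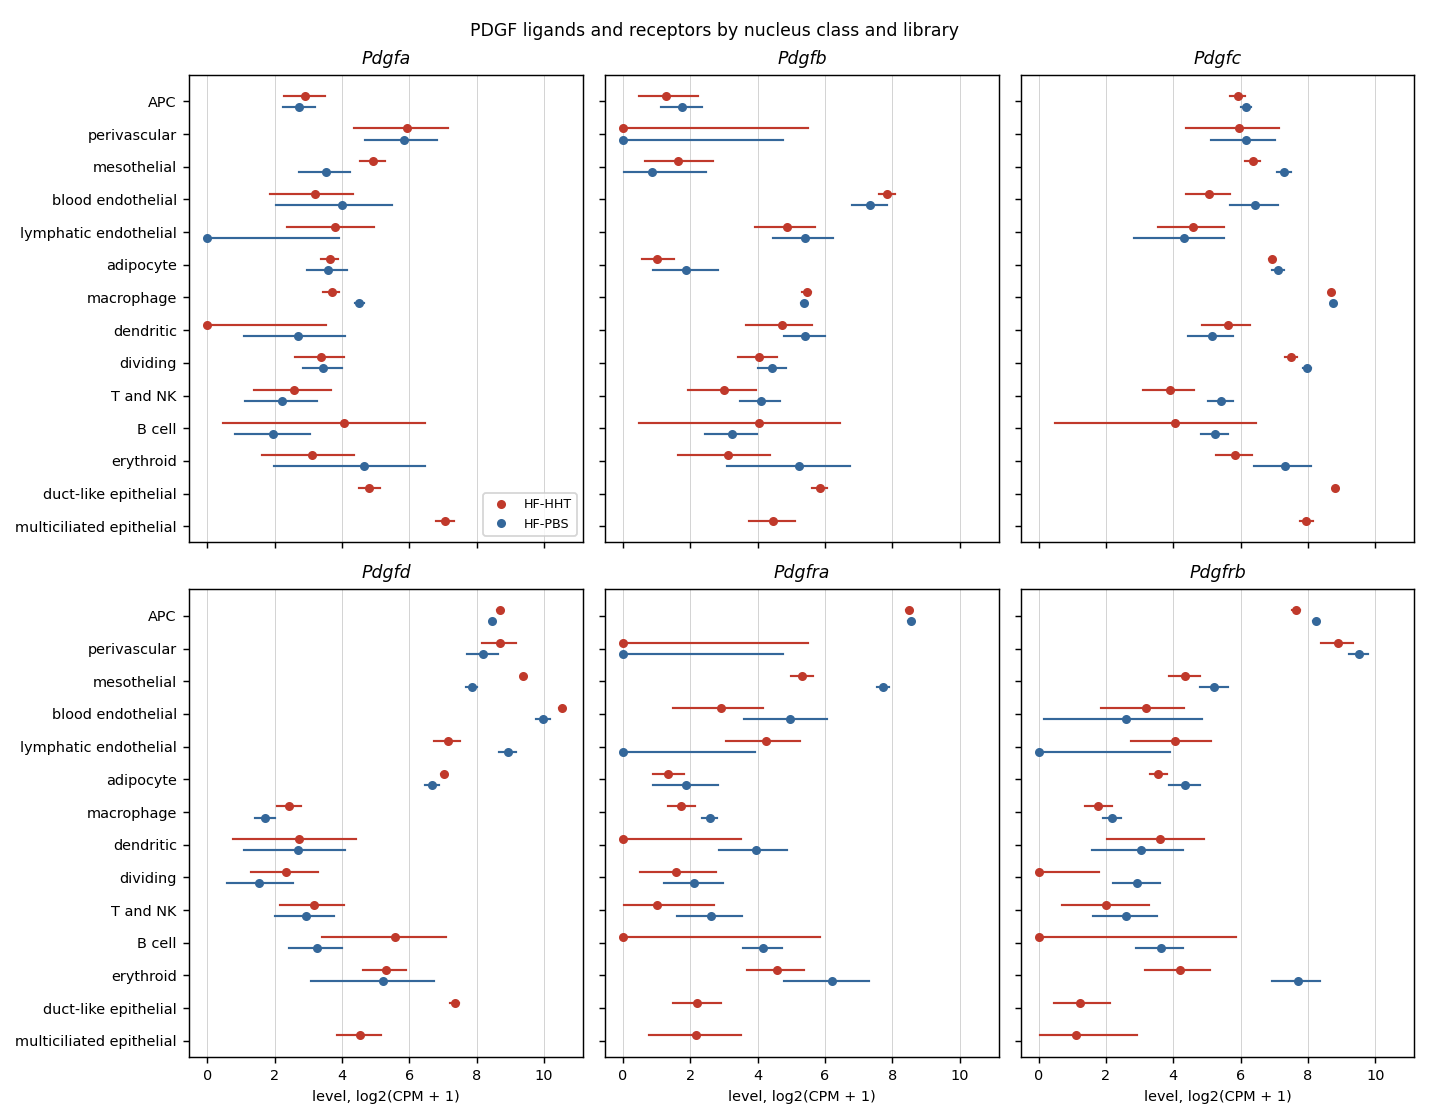
Level of each gene, as log2(CPM + 1), in each nucleus class (rows) of HF-HHT (red, upper point of a pair) and HF-PBS (blue, lower point), with exact Poisson 95% intervals as lines. Pdgfd stood highest in blood endothelial nuclei (1488 CPM in HF-HHT and 999 CPM in HF-PBS), Pdgfc highest in macrophages among the classes present in both, and Pdgfra highest in APCs.

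Pdgfd, a ligand of receptor beta (GRCm38 chromosome 9, 6168584 to 6378850, plus strand, GENCODE vM21), was a gene of vessels, mesothelium and precursors. Blood endothelial nuclei held it at 1488 CPM (interval 1392 to 1587, 911 UMIs) in HF-HHT and 999 CPM (865 to 1149, 198 UMIs) in HF-PBS. Both libraries had this class on top, and the intervals did not overlap those of the next class. The log2 ratio of HF-HHT over HF-PBS was 0.57 (0.35 to 0.80), just inside the 1.5-fold difference used here as a measure of size. In blood endothelial nuclei 22.1% of the 6040 genes measured (at least 20 UMIs over both libraries) were at least 1.5-fold higher and 15.3% at least 1.5-fold lower.

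The highest Pdgfd ratio was in mesothelial nuclei, the lining cells of the fat pad. They held 670 CPM (634 to 708, 1281 UMIs) in HF-HHT and 231 CPM (205 to 259, 285 UMIs) in HF-PBS, a 2.91-fold difference and a log2 ratio of 1.54 (1.35 to 1.73). A Pdgfd UMI was found in 244 of 314 HF-HHT nuclei (77.7%) and 72 of 158 HF-PBS nuclei (45.6%). The gap remained when nuclei, of medians 5378 and 7160.5 UMIs, were thinned to 1000 UMIs each, with 43.9% and 19.1%. For comparison, T and NK nuclei, which should lack the gene, had a Pdgfd UMI in 1.48% and 1.22% of nuclei at medians of 1542 and 1748 UMIs. In mesothelial nuclei 23.9% of 10656 measured genes were at least 1.5-fold higher and 13.2% at least 1.5-fold lower. The mesothelial marker list also differed between the libraries, at 3970 CPM in HF-HHT and 1867 CPM in HF-PBS with all 8 markers detected in each. So did the lists of other cell types in these nuclei, with adipocyte markers at 416 and 191 CPM and lymphatic markers at 1467 and 587 CPM. The lymphatic list holds Pkhd1l1, which was among the top genes of the mesothelial cluster itself. Its level here is therefore not a measure of lymphatic RNA. The part of these lists in the Pdgfd difference was not tested. Free RNA held Pdgfd at 97.4 CPM in HF-HHT and 45.5 CPM in HF-PBS, and at its largest share it would give 7.98 and 2.09 CPM of the mesothelial level.

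Lymphatic endothelial nuclei went the other way. They held 140 CPM (105 to 182, 54 UMIs) in HF-HHT and 487 CPM (406 to 579, 128 UMIs) in HF-PBS, a log2 ratio of -1.80 (-2.29 to -1.33). Here the depths were far apart, with medians of 1268.5 and 4891 UMIs, and 78 of 198 HF-HHT nuclei were too shallow for thinning against 2 of 49 HF-PBS nuclei. After thinning, 10.0% of HF-HHT nuclei and 29.8% of HF-PBS nuclei had a Pdgfd UMI. The lymphatic list (Prox1, Flt4 and 4 others) stood at 8230 and 10082 CPM with no marker at 0, and the part of depth in the level was not tested. Free RNA made up at most 14.8% of the UMIs of these nuclei in HF-HHT and 0% in HF-PBS. At that share it would give 14.4 CPM of the HF-HHT Pdgfd level.

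APCs and adipocytes carried Pdgfd at similar levels in both libraries. APCs held 411 CPM (388 to 436) in HF-HHT and 349 CPM (333 to 366) in HF-PBS, a log2 ratio of 0.24 (0.13 to 0.34) against a median of 0.17 over the 12210 genes measured in APCs. Adipocytes held 130 CPM (123 to 137) in HF-HHT and 101 CPM (86.9 to 116) in HF-PBS, a log2 ratio of 0.37 (0.15 to 0.59) against a class median of 0.31. The few perivascular nuclei held 411 CPM (34 UMIs) in HF-HHT and 290 CPM (41 UMIs) in HF-PBS. Macrophages had 4.37 and 2.27 CPM, which is no more than the 5.89 and 3.02 CPM that free RNA would give.

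Pdgfc, a ligand of receptor alpha that needs extracellular cleavage (GRCm38 chromosome 3, 81036416 to 81214040, plus strand), was highest in macrophages among the classes present in both libraries. Macrophages, a class that includes monocyte-like nuclei, held it at 411 CPM (399 to 423, 4415 UMIs) in HF-HHT and 425 CPM (416 to 434, 9156 UMIs) in HF-PBS. The log2 ratio was -0.05 (-0.10 to 0.00), below the class median of 0.16. In macrophages 26.0% of 14383 measured genes were at least 1.5-fold higher and 8.06% at least 1.5-fold lower. A Pdgfc UMI was found in 37.3% of HF-HHT and 54.4% of HF-PBS macrophages, and in 22.1% and 26.8% after thinning. T and NK nuclei had one in 2.22% and 6.53%, and free RNA held 144 and 237 CPM, of which at most 8.72 and 15.7 CPM would fall to macrophages.

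Within the class the clusters differed in opposite directions. Clusters 7 and 10, named from monocyte markers, made up 35.6% of the HF-HHT and 12.0% of the HF-PBS class. They were not alike in the libraries: the monocyte list stood at 1251 CPM in HF-HHT and 629 CPM in HF-PBS in cluster 7, and at 899 and 215 CPM in cluster 10. Cluster 7 held 13.4 CPM of Pdgfc (8.28 to 20.5) in HF-HHT and 89.3 CPM (73.1 to 108) in HF-PBS, and cluster 10 held 30.7 CPM (23.8 to 39.0) in HF-HHT and 76.6 CPM (60.1 to 96.4) in HF-PBS. Cluster 14, in which all 5 markers of resident macrophages (Lyve1, Timd4, F13a1, Folr2 and Cd163) were found, had the highest level of any cluster of the class, at 1570 CPM (1487 to 1655) in HF-HHT and 1158 CPM (1089 to 1231) in HF-PBS. In it 129 of 145 HF-HHT and 124 of 135 HF-PBS nuclei had a Pdgfc UMI. Cluster 9, with the highest lipid-associated list (Trem2, Gpnmb and 4 others) at 5403 and 7768 CPM, held 487 CPM (446 to 530) in HF-HHT and 289 CPM (273 to 304) in HF-PBS. Clusters 0 and 3 were also higher in HF-HHT, at 353 against 287 CPM and 812 against 650 CPM, whereas cluster 1 was lower, at 440 against 608 CPM. With the monocyte-like clusters left out, an alternative added after seeing the data, macrophages held 618 CPM in HF-HHT and 462 CPM in HF-PBS, a log2 ratio of 0.42 (0.37 to 0.47). The resident list stood at 498 CPM in HF-HHT and 2206 CPM in HF-PBS in cluster 7, and at 525 and 709 CPM in cluster 10, so that in HF-PBS it exceeded the monocyte list in both. The part of these lists in the Pdgfc differences of clusters 7 and 10 was not tested.

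**Figure D2:**
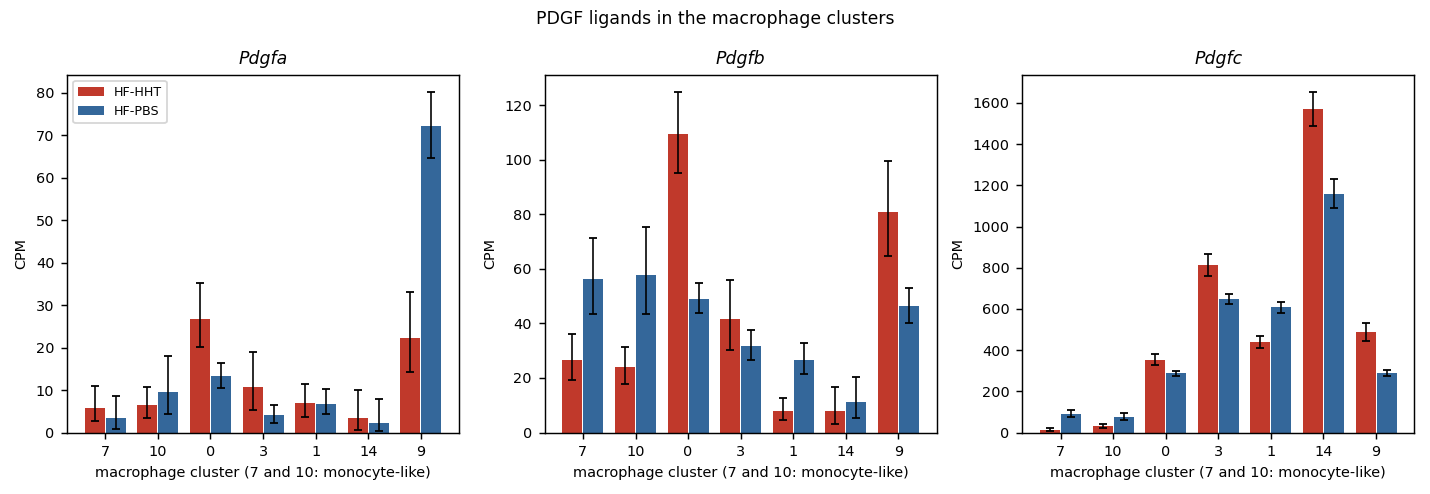
CPM of Pdgfa, Pdgfb and Pdgfc (panels) in the 7 macrophage clusters, HF-HHT as the left red bar and HF-PBS as the right blue bar of each pair, with exact Poisson 95% intervals. Pdgfc stood at 13.4 and 30.7 CPM in monocyte-like clusters 7 and 10 of HF-HHT and at 1570 CPM in its resident-marker cluster 14, and Pdgfa was concentrated in cluster 9 of HF-PBS at 72.2 CPM.

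Outside macrophages, Pdgfc was lower in HF-HHT or had a ratio with an interval across 0. Dividing nuclei held 179 CPM in HF-HHT and 251 CPM in HF-PBS (log2 ratio -0.49, -0.70 to -0.27). Mesothelial nuclei held 81.1 CPM (155 UMIs) in HF-HHT and 155 CPM (192 UMIs) in HF-PBS, a log2 ratio of -0.94 (-1.25 to -0.62), opposite in sign to Pdgfd in the same nuclei. Adipocytes held 121 CPM (114 to 128) in HF-HHT and 137 CPM (121 to 155) in HF-PBS, with a UMI in 50.8% and 47.3% of nuclei. APCs held 59.7 and 70.7 CPM, and within them cluster 13, which had 6 of the 7 markers of the Dpp4 and Pi16 progenitor list, held 88.3 CPM (65.6 to 116) in HF-HHT and 204 CPM (173 to 239) in HF-PBS. Blood endothelial, T and NK and erythroid nuclei had log2 ratios of -1.39, -1.57 and -1.50 on 13 to 57 UMIs per library, and in T and NK nuclei the HF-HHT level was under the 18.4 CPM that free RNA would give and the HF-PBS level of 41.6 CPM was above its 27.4 CPM. The HF-HHT duct-like epithelial nuclei held 450 CPM (427 to 475, 1361 UMIs) and the multiciliated ones 248 CPM (216 to 284), with no HF-PBS counterpart.

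Pdgfb, the ligand of both receptors (GRCm38 chromosome 15, 79995874 to 80014977, minus strand), was highest in blood endothelial nuclei. They held 229 CPM (192 to 270, 140 UMIs) in HF-HHT and 162 CPM (110 to 228, 32 UMIs) in HF-PBS, with a UMI in 36.5% and 38.9% of nuclei. The log2 ratio of 0.50 had an interval that reached below 0 (-0.06 to 1.10), so no difference was detectable at this depth. Macrophages, the class with the most Pdgfb UMIs, stood at 43.1 CPM (39.2 to 47.2) in HF-HHT and 40.7 CPM (38.0 to 43.5) in HF-PBS. The clusters again differed in opposite directions. Cluster 0 held 109 CPM (95.3 to 125) in HF-HHT and 49.0 CPM (43.7 to 54.8) in HF-PBS, and cluster 9 held 80.7 CPM (64.6 to 99.5) in HF-HHT and 46.3 CPM (40.3 to 52.9) in HF-PBS. Clusters 1, 7 and 10 were lower in HF-HHT, at 7.83 against 26.7 CPM, 26.8 against 56.1 CPM and 23.9 against 57.7 CPM. The level of the class therefore depended on its make-up: in alternatives added after seeing the data, it was 61.5 CPM in HF-HHT and 40.7 CPM in HF-PBS with the clusters at their HF-PBS shares (log2 ratio 0.60), and 52.7 and 38.9 CPM without the monocyte-like clusters (0.44, 0.25 to 0.62). No Pdgfb UMI was found in perivascular nuclei, where the intervals reach 44.6 CPM in HF-HHT and 26.1 CPM in HF-PBS.

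Pdgfa, a ligand of receptor alpha (GRCm38 chromosome 5, 138976014 to 138997370, minus strand), was the ligand with the fewest UMIs, 550 in HF-HHT and 582 in HF-PBS. Macrophages held 11.9 CPM (9.93 to 14.2, 128 UMIs) in HF-HHT and 22.0 CPM (473 UMIs) in HF-PBS, a log2 ratio of -0.88 (-1.18 to -0.60). This rested on cluster 9, where HF-HHT had 24 UMIs (22.3 CPM, 14.3 to 33.1) in 19 of 177 nuclei and HF-PBS had 335 UMIs (72.2 CPM, 64.6 to 80.3) in 138 of 495 nuclei, with at most 25 in 1 nucleus. Without cluster 9, an alternative added after seeing the data, the log2 ratio was 0.40 (0.02 to 0.78), so the sign of the class value was set by that cluster. Cluster 0 went the other way, at 26.8 CPM (20.1 to 35.1, 53 UMIs) in HF-HHT and 13.2 CPM (10.5 to 16.4, 83 UMIs) in HF-PBS. Cluster 9 was deeper in HF-PBS, with medians of 5144 UMIs in HF-HHT and 8470 UMIs in HF-PBS. Mesothelial nuclei held 29.3 CPM (22.1 to 38.0, 56 UMIs) in HF-HHT and 10.5 CPM (13 UMIs) in HF-PBS, a log2 ratio of 1.48 (0.59 to 2.47). Adipocytes were level at 11.5 and 11.1 CPM. The highest Pdgfa of any class was in the multiciliated epithelial nuclei of HF-HHT, at 133 CPM (109 to 160) with a UMI in 64 of 124.

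Pdgfra, receptor alpha (GRCm38 chromosome 5, 75152292 to 75198215, plus strand), was a gene of APCs, at close levels in both libraries. It stood at 362 CPM (340 to 385, 1012 UMIs) in HF-HHT and 373 CPM (357 to 390, 1912 UMIs) in HF-PBS, a log2 ratio of -0.04 (-0.16 to 0.07). In APCs 23.1% of measured genes were at least 1.5-fold higher and 7.92% at least 1.5-fold lower. A Pdgfra UMI was seen in 57.0% of HF-HHT and 72.1% of HF-PBS APCs, whose median depths were 3353 and 5820 UMIs, and in 27.1% and 28.3% once thinned to 1000 UMIs. In macrophages, which should lack it, the shares were 1.07% and 2.45% at medians of 4062.5 and 4946 UMIs. Between the APC clusters, cluster 2 held 396 CPM (370 to 423) in HF-HHT and 394 CPM (376 to 413) in HF-PBS, and the progenitor-list cluster 13 held less, 228 CPM (190 to 271) and 255 CPM (221 to 294).

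Mesothelial nuclei were the exception for Pdgfra. They held 39.2 CPM (30.9 to 49.2, 75 UMIs) in HF-HHT and 209 CPM (185 to 237, 259 UMIs) in HF-PBS, a 5.34-fold lower level in HF-HHT and a log2 ratio of -2.42 (-2.81 to -2.04). A UMI was present in 39 of 314 HF-HHT nuclei (12.4%) and 68 of 158 HF-PBS nuclei (43.0%), and in 2.88% and 12.1% after thinning. The APC marker list, which does not hold Pdgfra, stood at 4213 CPM in HF-HHT and 3704 CPM in HF-PBS in the same nuclei. The mesothelial cluster itself also passed the naming rule for the APC list. The level of that list here is therefore not a measure of APC RNA alone, and the part of APC RNA in the Pdgfra difference was not tested. The size depended on which nuclei were kept: with likely doublets kept the log2 ratio was -1.73, and with no upper limit on UMIs or genes -1.32. In mesothelial nuclei 5 of the 6 genes differed by at least 1.5-fold, with Pdgfd and Pdgfa higher and Pdgfra, Pdgfc and Pdgfrb (19.4 against 36.4 CPM) lower in HF-HHT, where 23.9% of all measured genes were higher and 13.2% lower by as much. Pdgfb had only 4 and 1 UMIs there and was not measured. Pdgfra UMIs were absent from all 26 HF-HHT and 29 HF-PBS perivascular nuclei, which allows up to 44.6 and 26.1 CPM.

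Pdgfrb, receptor beta, had a lower summed level in APCs of HF-HHT. APCs held 200 CPM (184 to 217, 559 UMIs) in HF-HHT and 300.3 CPM (285 to 316, 1538 UMIs) in HF-PBS, a log2 ratio of -0.59 (-0.73 to -0.45), at the 1.5-fold line. A Pdgfrb UMI was seen in 275 of 675 HF-HHT APCs (40.7%) and 476 of 753 HF-PBS APCs (63.2%). After thinning the shares were 19.9% (16.8 to 23.2) and 22.4% (19.5 to 25.6), intervals that overlap. The difference lay in cluster 2, with 236 CPM (216 to 257) in HF-HHT and 345 CPM (328 to 363) in HF-PBS. In cluster 13 the gene stood at 58.3 CPM (40.1 to 81.9) and 45.8 CPM (31.9 to 63.7), with intervals that overlap. The gene spans 61045150 to 61085061 on the plus strand of GRCm38 chromosome 18.

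Perivascular nuclei, with pericyte markers such as Kcnj8, Abcc9 and Rgs5, held the highest Pdgfrb of any class: 471 CPM (335 to 645, 39 UMIs) in HF-HHT and 729 CPM (595 to 884, 103 UMIs) in HF-PBS. The log2 ratio was -0.63 (-1.20 to -0.08) on 26 and 29 nuclei. A UMI was seen in 14 of 26 HF-HHT and 26 of 29 HF-PBS nuclei, of medians 2257.5 and 3491 UMIs. After thinning the shares were 33.3% (15.6 to 55.3) and 55.2% (35.7 to 73.6), intervals that overlap. The APC list in these nuclei stood at 1100 and 2590 CPM, and its part in the Pdgfrb difference was not tested. Adipocytes held 10.8 CPM (107 UMIs) in HF-HHT and 19.5 CPM (37 UMIs) in HF-PBS, a log2 ratio of -0.85 (-1.41 to -0.27). In the same nuclei the perivascular list stood at 64.4 and 249 CPM (7 and 6 of 8 markers detected, Kcnj8 at 0 in both) and the APC list at 226 and 305 CPM, and their part in the Pdgfrb difference was not tested. In adipocytes 35.6% of 12557 measured genes were at least 1.5-fold higher and 12.4% at least 1.5-fold lower. Erythroid nuclei held 17.3 CPM (9 UMIs) in HF-HHT and 206 CPM (17 UMIs) in HF-PBS, but the HF-PBS nuclei of that class had a median of 761 UMIs and free RNA made up to 31.5% of them.

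**Figure D3:**
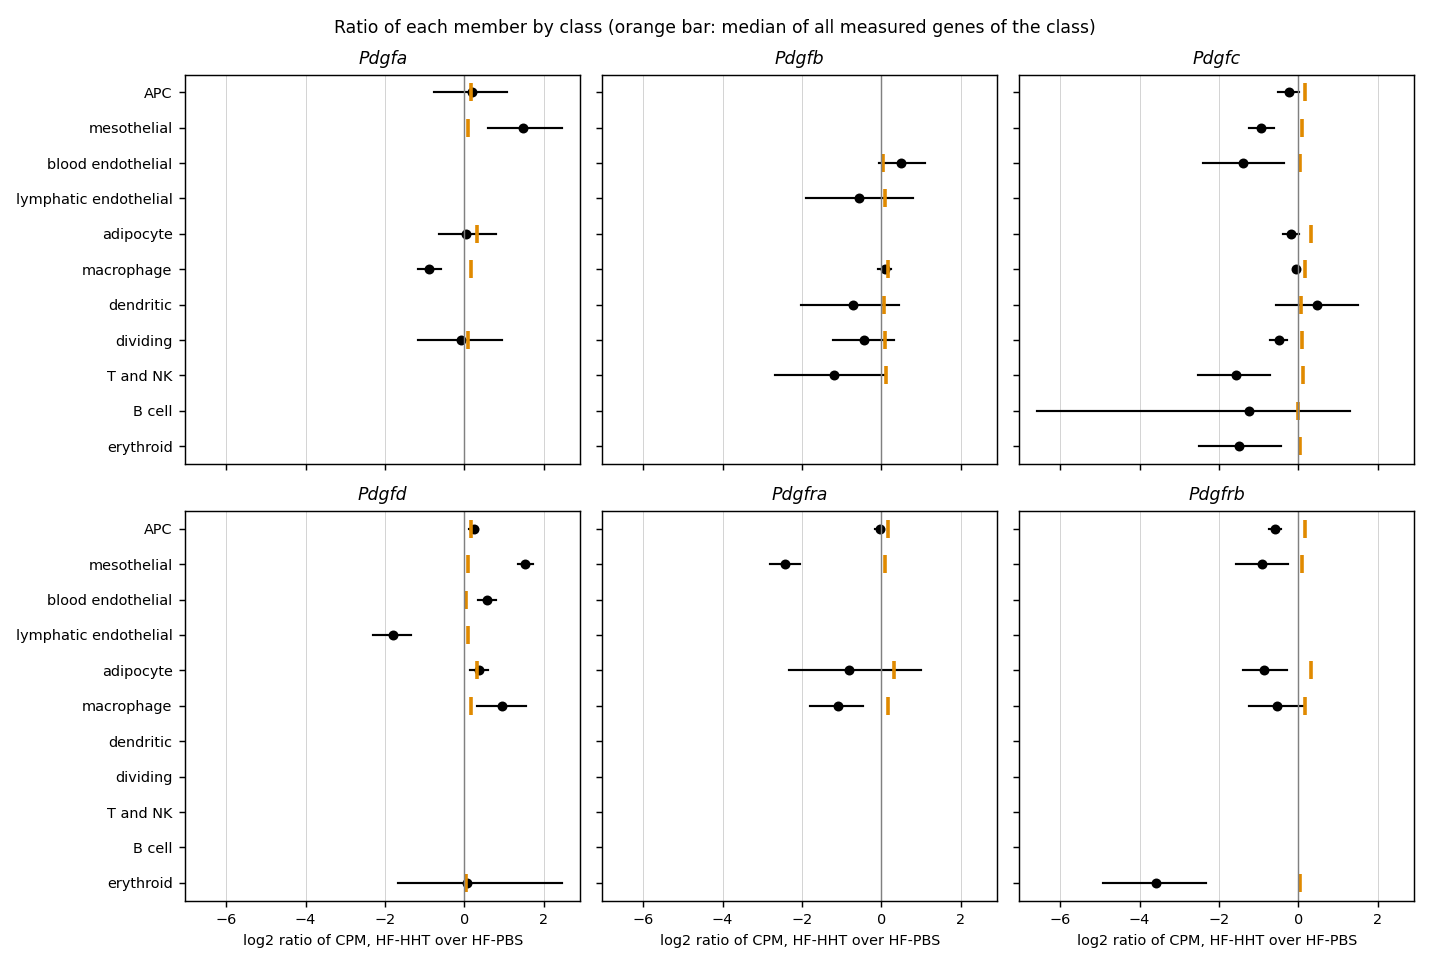
Log2 ratio of CPM, HF-HHT over HF-PBS, of each gene in each class with at least 30 nuclei in both libraries and at least 20 UMIs of the gene (points), with exact 95% intervals (lines) and the median of all measured genes of the class (orange bar). Pdgfrb was left of the orange bar in all 5 classes with a value, and Pdgfd lay at 1.54 in mesothelial and -1.80 in lymphatic endothelial nuclei.

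Over all classes, the 6 genes gave 37 ratios with at least 20 UMIs. Of these, 3 (8.11%) were at least 1.5-fold higher in HF-HHT, with all 3 intervals above 0, and 16 (43.2%) were at least 1.5-fold lower, with 12 intervals below 0. Among all 99069 pairs of a measured gene and a class, 25.2% were at least 1.5-fold higher and 12.4% at least 1.5-fold lower. The lower values were spread over 3 from Pdgfra, 4 from Pdgfrb, 5 from Pdgfc, 2 from Pdgfb and 1 each from Pdgfa and Pdgfd. Levels near free RNA were not left out of these counts. Among them are Pdgfd in macrophages, 1 of the 3 higher values, and Pdgfra in macrophages, 1 of the lower. The latter stood at 2.33 and 4.97 CPM, where free RNA would give up to 2.55 and 4.44 CPM in HF-HHT and HF-PBS. With free RNA subtracted, 32 of 34 recomputed ratios stayed within their counting interval. Ratios of 1 gene in several classes share the same 2 libraries and are not independent.

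The receptors were seen together mainly in APCs. With all UMIs, both receptors were seen in 176 of 675 HF-HHT APCs (26.1%, 22.8 to 29.6) and 363 of 753 HF-PBS APCs (48.2%, 44.6 to 51.8). At 1000 UMIs per nucleus both were seen in 4.89% (3.35 to 6.87) and 6.80% (5.10 to 8.84), intervals that overlap. In cluster 2 the unthinned shares were 31.5% and 57.3%, and in cluster 13 they were 7.79% and 9.72%. After thinning, cluster 2 had 6.26% (4.29 to 8.77) and 8.42% (6.33 to 10.9), intervals that overlap. Cluster 13 then had 0 of 139 and 0 of 144. Pdgfd was seen together with a receptor in 240 HF-HHT (35.6%) and 352 HF-PBS (46.7%) APC nuclei, and after thinning the order turned, with 72 of 634 (11.4%) in HF-HHT and 66 of 750 (8.80%) in HF-PBS. In mesothelial nuclei both were seen in 1.91% of HF-HHT and 13.3% of HF-PBS nuclei, and in perivascular nuclei in 0 of 26 and 0 of 29. The HF-PBS mesothelial nuclei were deeper. After thinning both were seen in 0 of 312 HF-HHT and 1 of 157 HF-PBS mesothelial nuclei, so no difference was detectable at equal depth.

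The source of each ligand in the tissue depends on levels and on how many nuclei of a class were recovered. Of the Pdgfc UMIs in kept nuclei, macrophages held 56.1% (55.0 to 57.2) in HF-HHT and 85.8% (85.1 to 86.4) in HF-PBS, adipocytes 15.2% and 2.44%, and duct-like epithelial nuclei 17.3% in HF-HHT. Macrophages held 53.6% and 84.2% of Pdgfb, and blood endothelial nuclei 16.2% and 3.07%. For Pdgfa the macrophage share was 23.3% in HF-HHT and 81.3% in HF-PBS, and multiciliated epithelial nuclei held 20.5% in HF-HHT. Pdgfd came from adipocytes (24.2%), mesothelial nuclei (24.1%), APCs (21.6%) and blood endothelial nuclei (17.1%) in HF-HHT, and in HF-PBS from APCs (66.0%), mesothelial (10.5%), blood endothelial (7.30%) and adipocyte nuclei (7.04%). At equal numbers of nuclei per class, blood endothelial nuclei held 34.0% of Pdgfd in HF-HHT and 30.9% in HF-PBS, and mesothelial nuclei 30.9% and 15.2%. On the same footing the macrophage shares were far smaller, 3.56% and 22.1% for Pdgfa, 12.7% and 15.9% for Pdgfb, and 20.6% and 28.5% for Pdgfc in HF-HHT and HF-PBS. These equal-number shares use classes of at least 30 nuclei in a library, so the epithelial classes enter them in HF-HHT only. There multiciliated nuclei held 57.1% of Pdgfa, and duct-like nuclei held 15.2% of Pdgfb and 20.7% of Pdgfc. The HF-HHT and HF-PBS values are therefore not shares of the same set of classes. Receptor UMIs lay in APCs, which had 86.6% of Pdgfra in HF-HHT and 81.7% in HF-PBS, and 69.9% and 82.7% of Pdgfrb. Without the epithelial classes, left out after seeing the data, the HF-HHT macrophage shares of UMIs in nuclei as recovered were 36.1% for Pdgfa, 68.5% for Pdgfb and 70.1% for Pdgfc.

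**Figure D4:**
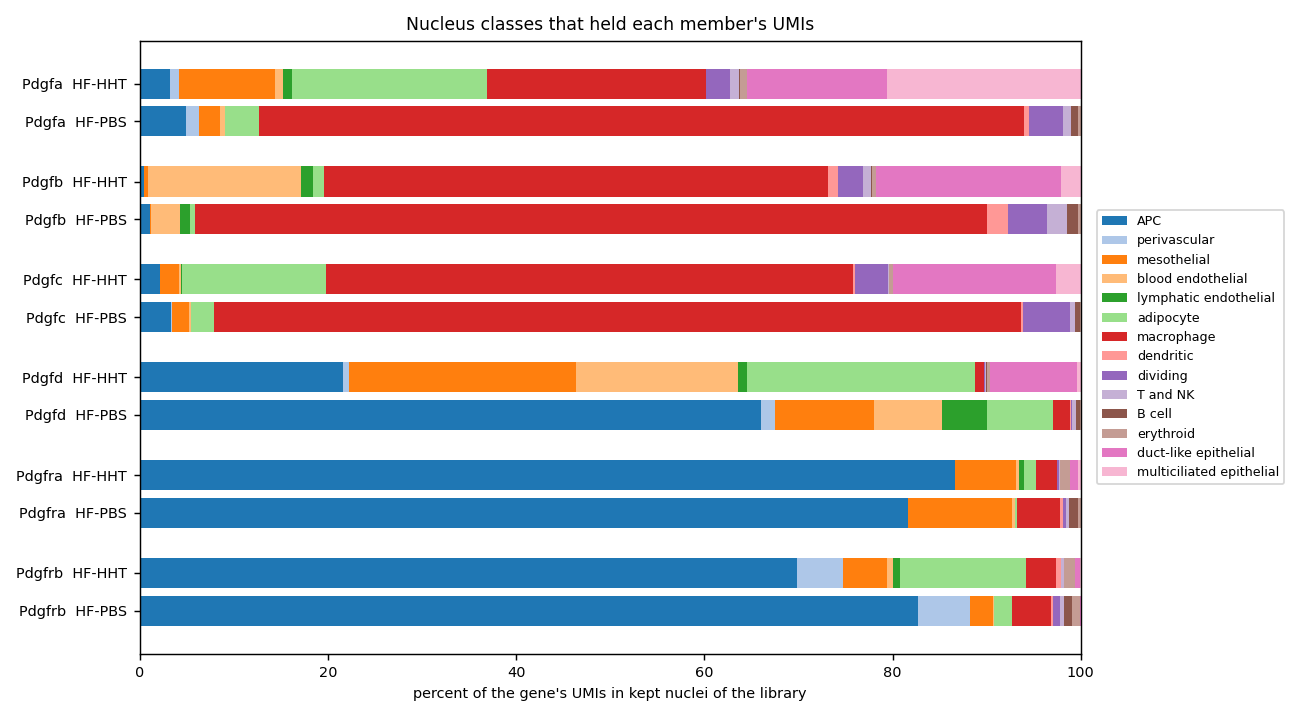
Percent of each gene's UMIs that lay in each nucleus class (colored segments), with HF-HHT as the upper and HF-PBS as the lower bar of each pair. Macrophages held 56.1% of Pdgfc UMIs in HF-HHT and 85.8% in HF-PBS, and APCs held 21.6% and 66.0% of Pdgfd.

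The other genes of the pathway were taken from 4 lists of 53 genes written from general knowledge. The first holds 7 proteases that can cut the ligands. In mesothelial nuclei 4 of 6 measured were at least 1.5-fold higher and 2 lower in HF-HHT, beside 23.9% and 13.2% of all genes measured there, with Pcsk5, a proprotein convertase, at 135 against 44.5 CPM and Plat, tissue plasminogen activator and an activator of PDGF-C, at 64.9 against 152 CPM. In macrophages 4 of 7 were higher and 1 lower, beside 26.0% and 8.06% of all genes, with Furin at 62.7 CPM in HF-HHT and 29.7 CPM in HF-PBS, and Plau, urokinase and an activator of PDGF-D, at 33.2 against 55.4 CPM. In APCs 2 of 6 were higher and none lower, beside 23.1% and 7.92% of all genes. Plau was the highest there, at 41.1 CPM in HF-HHT and 18.7 CPM in HF-PBS, and Pcsk5 the lowest at a log2 ratio of -0.05. In adipocytes 1 of 5 was higher and 1 lower, beside 35.6% and 12.4% of all genes. Pcsk5 stood at 824 against 1470 CPM and Pcsk6 at 28.9 against 23.2 CPM. In blood endothelial nuclei 1 of 5 was higher and 2 lower, beside 22.1% and 15.3% of all genes. Pcsk5, the only gene with 50 UMIs in a library, stood at 163 against 80.8 CPM.

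The second list holds 7 genes that bind the ligands or assist the receptors. Of all measured genes, 35.6% were at least 1.5-fold higher and 12.4% lower in adipocytes, and 23.1% and 7.92% in APCs. The same shares were 26.0% and 8.06% in macrophages, 22.1% and 15.3% in blood endothelial and 23.9% and 13.2% in mesothelial nuclei. Nrp1, a neuropilin, was lower in APCs at 449 CPM in HF-HHT and 798 CPM in HF-PBS, and Nrp2 was higher there at 105 against 48.2 CPM. In APCs 1 of 5 was higher and 1 lower. In adipocytes none of 5 was higher and 3 were lower, with Nrp2 at 13.5 against 62.2 CPM and Nrp1 at 777 against 796 CPM. In macrophages none of 6 was higher and 1 lower by 1.5-fold, and Nrp2 (451 against 324 CPM) and Lrp1, an endocytic receptor (496 against 670 CPM), were the ends of the list among genes with 50 UMIs. In blood endothelial nuclei 1 of 4 was higher and 2 lower, with Nrp2 at 557 against 353 CPM and Sparc, a matrix protein that binds PDGF-B, at 318 against 505 CPM. In mesothelial nuclei 1 of 4 was higher and 3 lower, with Sparc at 625 against 386 CPM and Nrp2 at 22.5 against 51.0 CPM.

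The third list holds 27 genes that relay the signal inside the cell. Its members were mostly within 1.5-fold: 6 were higher and 3 lower in adipocytes, 1 and 1 in APCs, 4 and 3 in macrophages, and 2 and 2 in mesothelial nuclei, of 27 measured in each, and 4 and 2 of 24 in blood endothelial nuclei. Beside these stand 35.6% and 12.4% of all genes in adipocytes, 23.1% and 7.92% in APCs and 26.0% and 8.06% in macrophages. In mesothelial nuclei the shares of all genes were 23.9% and 13.2%, and in blood endothelial nuclei 22.1% and 15.3%. Pik3r1, the regulatory subunit of PI3-kinase, was the highest in adipocytes at 1258 CPM in HF-HHT and 418 CPM in HF-PBS, a log2 ratio of 1.59 (1.48 to 1.69), and also in blood endothelial nuclei at 224 against 106 CPM. Prkca, protein kinase C alpha, was the lowest in adipocytes at 304 against 849 CPM and in APCs at 784 against 1210 CPM, where Stat3 was the highest at 278 against 199 CPM. The ends of the list were Yes1 (5.40 against 2.55 CPM) and Rasa1 (588 against 994 CPM) in macrophages, Pik3cb (130 against 62.3 CPM) and Nck2 (84.2 against 168 CPM) in mesothelial nuclei, and Yes1 (302 against 454 CPM) at the low end in blood endothelial nuclei.

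The fourth list holds 12 genes that attenuate the signal. As above, its highest and lowest genes are named only among those with at least 50 UMIs in the higher library. Cblb, a ubiquitin ligase of the family that sends receptors for degradation, was the lowest of the list in 3 classes. It stood at 251 CPM in HF-HHT and 2313 CPM in HF-PBS mesothelial nuclei, a log2 ratio of -3.20 (-3.35 to -3.06), at 623 against 1089 CPM in APCs and at 505 against 954 CPM in macrophages. Ptprj, a receptor phosphatase, was the lowest in adipocytes at 151 against 398 CPM, and Rasal2 in blood endothelial nuclei at 836 against 1151 CPM. At the high end were Spry2, an inhibitor of receptor tyrosine kinase signaling, in adipocytes (9.58 against 5.27 CPM) and APCs (64.4 against 42.6 CPM), Dusp6 in macrophages (25.4 against 14.6 CPM), and Ptpn1 in blood endothelial (108 against 60.6 CPM) and mesothelial nuclei (74.8 against 67.9 CPM). None of 11 measured genes was higher and 4 were lower in mesothelial nuclei, beside 23.9% and 13.2% of all genes there. The median log2 ratio in mesothelial nuclei was -0.55 against 0.09 for all measured genes. In adipocytes 1 of 11 was higher and 4 lower, beside 35.6% and 12.4% of all genes. In APCs 2 of 12 were higher and 2 lower, beside 23.1% and 7.92%. In macrophages 2 of 11 were higher and 2 lower, beside 26.0% and 8.06%. In blood endothelial nuclei 3 of 9 were higher and 1 lower, beside 22.1% and 15.3%. Over the 4 lists, 8 of 48 were higher and 11 lower in adipocytes, 6 and 4 of 50 in APCs, 10 and 7 of 51 in macrophages, 9 and 7 of 42 in blood endothelial and 7 and 11 of 48 in mesothelial nuclei. No list was tested, and with 1 library per group the counts describe these 2 libraries. Set against all measured genes of the class, the share higher was under or near theirs in each class, and the share lower was above theirs in adipocyte, mesothelial and macrophage nuclei and near it in APCs and blood endothelial nuclei.

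Genes whose levels followed each member most closely were sought over the 11 classes of both libraries, 22 points that share 2 libraries, among 9889 genes. For Pdgfd they were Ptprg (Pearson r = 0.97), Nfib (0.96) and Tcf7l1 (0.96), for Pdgfra Clec3b (0.92), Hhipl1 (0.90) and Dclk1 (0.88), and for Pdgfrb Col6a2 (0.92), Ltbp2 (0.90) and Lox (0.89). For Pdgfc they were Epb41l1 (0.91), Lrp1 (0.87) and Tmem87b (0.86), for Pdgfb Cd93 (0.86), Gpr160 (0.84) and Smagp (0.84), and for Pdgfa Tlr5 (0.82), Echs1 (0.79) and Vdac1 (0.78). Some points rest on few UMIs. For Pdgfa they include 1 UMI in HF-HHT B cells and 0 in HF-HHT dendritic and HF-PBS lymphatic endothelial nuclei. Among the members themselves, the receptors were the most alike (r = 0.83), and Pdgfb and Pdgfrb the least (r = -0.42).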

How the data were processed

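The deposited files hold raw UMI counts per gene and barcode, with no filter on barcodes, which per the labels and the study's methods were made by the authors with Cell Ranger 5.0.0 from 10x 3′ v3.1 libraries and the mm10 genome. On intronic reads the sources used here say nothing. Barcodes were called as nuclei by depth (3000 expected) and, from 500 UMIs, by a Monte Carlo test against free RNA (10000 draws, false discovery rate 0.01). On barcodes of 600 to 1500 UMIs simulated from HF-PBS, that test called 96 to 100% of nuclei of 4 stromal and adipocyte classes. It called 0% of macrophages, whose profile is close to free RNA there, so shallow macrophages of HF-PBS are left out. Calling in HF-HHT was not simulated, so the loss of shallow macrophages there is not known and may differ. Likely doublets (Scrublet in scanpy, top 0.8% per 1000 nuclei) were removed, and the study's limits were applied: over 400 genes, below the 95th percentile of UMIs and genes, and below 0.5% mitochondrial UMIs. Nuclei were integrated and clustered with Seurat 5.3.0 (resolution 1.0) without the 6 genes, and clusters were named by markers from their fold over the median cluster. The names are rebuilt and can differ from the study's.

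Counts were summed per class and library and given as CPM with exact Poisson intervals. Log2 ratios have exact conditional binomial intervals, and shares have exact binomial ones. A count of 0 was set at 3 counts for a bound. Nuclei are not replicates, so no test was run. Named genes were the 6 members in classes of 30 nuclei, the highest and lowest of each list with 50 counts in the higher library in 5 classes, and the 3 genes of most like pattern (log2(CPM + 1), at least 500 UMIs, predicted genes left out). The members, lists and choices were set with earlier results of these data known. Alternatives were TMM (edgeR 4.0.16) and median-of-ratios scaling, free RNA subtraction, other filters on nuclei, 14 clusters, a 2-fold limit and thinning. Gene positions are from GENCODE vM21 and promoters from RefSeq, both on the GRCm38 build to which mm10 corresponds.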

Additional observations from a re-analysis of the deposited data

Results flagged for a closer look

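Some ratios of the same gene lay at least 1.5-fold apart in opposite directions in different classes, with counting intervals on 1 side of 0, and the difference between the classes was not tested. Pdgfd had log2 ratios of HF-HHT over HF-PBS of 1.54 in mesothelial and 0.94 in macrophage nuclei against -1.80 in lymphatic endothelial nuclei, where the macrophage value rested on 47 and 49 UMIs, no more than free RNA would give. Pdgfa had 1.48 in mesothelial against -0.88 in macrophage nuclei.

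Signal above free RNA was also present in the epithelial nuclei of HF-HHT, which enter no comparison. The duct-like nuclei held Pdgfc at 450 CPM, Pdgfd at 163 CPM and Pdgfb at 56.3 CPM, and the multiciliated nuclei held Pdgfc at 248 CPM and Pdgfa at 133 CPM.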

How the results depend on the processing

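Of 284 recomputed member ratios, 249 stayed within the counting interval of the reported value and 33 moved outside it. The other 2 had been at least 1.5-fold apart and changed sign, and some smaller ratios changed sign as well, among them Pdgfc in macrophages (-0.05 as reported). With TMM and with median-of-ratios scaling the log2 ratios were -0.20 and -0.21 for Pdgfc in macrophages, -0.20 and -0.21 for Pdgfra in APCs, and -0.74 and -0.75 for Pdgfrb in APCs. With mitochondrial UMIs below 5%, Pdgfra and Pdgfrb in APCs gave -0.23 and -0.77. In that setting a shallow cluster of 211 HF-HHT and 119 HF-PBS nuclei (medians 1627 and 1111 UMIs) was also named APC. Its top genes included the hemoglobin genes Hba-a1 and Hbb-bs, and its part in these 2 ratios was not tested. With no upper limit on UMIs or genes, Pdgfa in macrophages gave -1.66, Pdgfc in macrophages -0.13 and Pdgfra in mesothelial nuclei -1.32, and with doublets kept the last gave -1.73. With 14 clusters no endothelial cluster was named, and the larger macrophage cluster (1671 and 2011 nuclei) was not named either, so the class was only a cluster of 592 and 1594 nuclei high in the lipid-associated list, where Pdgfa gave -0.56, Pdgfb 1.02 and Pdgfc 0.49. In alternatives added after seeing the data, macrophage clusters at their HF-PBS shares gave -0.41 for Pdgfa, 0.60 for Pdgfb and 0.24 for Pdgfc. Leaving out cluster 9 gave 0.40 for Pdgfa, -0.01 for Pdgfb and -0.20 for Pdgfc. Leaving out the monocyte-like clusters gave -0.66 for Pdgfa, 0.44 for Pdgfb and 0.42 for Pdgfc. Pdgfc in B cells, with 1 UMI in HF-HHT, changed to 5.83 once free RNA was subtracted.

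The pathway counts moved by over 1.5 times in some settings. At 2-fold, 2 genes were higher and 5 lower in adipocytes, 2 and 0 in APCs, 4 and 0 in macrophages, 4 and 4 in blood endothelial and 3 and 5 in mesothelial nuclei. The higher count in adipocytes was 5 with TMM, 4 with median-of-ratios and 4 with no upper limit, in APCs 3 with either scaling, and in mesothelial nuclei 3 with no upper limit. In the macrophage cluster named with 14 clusters 6 were higher and 4 lower. No share of all measured genes at 2-fold or in these settings is given here. The counts therefore show only how far they moved. Of the shares of a member's UMIs, 54 of 96 stayed within their interval, and of the shares of nuclei with a UMI, 34 of 72.

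No paired analysis was possible because each group has 1 library, and leaving out a replicate was not possible for the same reason. Pooled mice hide the spread between animals. Few nuclei limit the blood endothelial and lymphatic values of HF-PBS and the perivascular values of both libraries, shallow nuclei limit the lymphatic values of HF-HHT, and the cause of each change was not tested.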
